A study of Homo sapiens with 9 samples.

Results

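The expression of 10 genes for secreted inflammatory chemokines and cytokines, CXCL1, CXCL2, CXCL3, CXCL8, IL1A, IL1B, IL6, IL11, LIF and CCL2, was examined in A375 cells treated with the BRD7/9 inhibitor TP-472. They were chosen by name, with earlier results of these data known. All 10 of them were found among the 26475 gene symbols of the count table. A375 is an established human melanoma line that carries a BRAF mutation, and TP-472 is a small molecule that binds the bromodomains of BRD9 and BRD7, subunits of SWI/SNF chromatin remodelling complexes. RNA sequencing covered 3 groups of 3 biological replicates, namely A375 cells kept for 24 h with the vehicle DMSO, with TP-472 at 5 µM or with TP-472 at 10 µM. The groups shared the same line and vehicle, a single line stands for the disease here, and the 2 doses were compared with the same 3 DMSO libraries.

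These proteins carry inflammatory signals between cells. CXCL1, CXCL2, CXCL3 and CXCL8 are CXC chemokines that bind the receptor CXCR2 and draw neutrophils, while CCL2 acts through CCR2 and draws monocytes. IL1A and IL1B are the agonists of the IL-1 receptor, whose signal leads to NF-kB and AP-1, the transcription factors known for driving most of the genes examined here, and IL6, IL11 and LIF bind receptors that signal through the shared subunit gp130. Melanoma cells are known to secrete many of these factors themselves.

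CXCL8 (chromosome 4, 73740506 to 73743716, plus strand), CXCL1 (73869393 to 73871242, plus strand), CXCL3 (74036589 to 74038807, minus strand) and CXCL2 (74097035 to 74099293, minus strand) lie in the chemokine cluster of chromosome 4 (GRCh38, GENCODE release 29). IL1A (112773915 to 112784590) and IL1B (112829751 to 112836903) are neighbours on the minus strand of chromosome 2. The remaining genes stand apart, IL6 on chromosome 7 (22725884 to 22732002, plus strand), IL11 on chromosome 19 (55364389 to 55370463, minus strand), LIF on chromosome 22 (30240447 to 30246851, minus strand) and CCL2 on chromosome 17 (34255218 to 34257203, plus strand). All 10 are protein-coding, with 3 to 7 exons in the principal transcript, and the values below are sums over a gene's transcripts.

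Sequence just upstream of the RefSeq transcription start (build GRCh38.p14) was found for 8 of the 10 genes. These starts are not always the GENCODE starts given above. The interval of IL6 lies inside its GENCODE span, and those of CXCL2, CXCL3, CXCL8 and IL1A overlap theirs in part. The 140 bases before the start are shown for 7 genes, because they hold letters of the NF-kB consensus or of the AP-1 motif, and because these genes moved in different directions. Capitals mark a match to the NF-kB consensus or to TGANTCA on either strand. The intervals are chr4:73869253-73869392 (plus strand) for CXCL1, chr4:74099196-74099335 (minus) for CXCL2, chr4:74038690-74038829 (minus) for CXCL3, chr7:22727060-22727199 (plus) for IL6, chr4:73740429-73740568 (plus) for CXCL8, chr2:112784494-112784633 (minus) for IL1A and chr19:55370464-55370603 (minus) for IL11.
CXCL1: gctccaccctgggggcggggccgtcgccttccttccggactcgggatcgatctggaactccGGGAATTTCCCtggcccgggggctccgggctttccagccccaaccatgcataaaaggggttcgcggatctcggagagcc
CXCL2: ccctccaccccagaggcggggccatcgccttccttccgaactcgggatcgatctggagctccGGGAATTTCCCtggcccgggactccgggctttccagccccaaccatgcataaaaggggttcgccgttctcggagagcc
CXCL3: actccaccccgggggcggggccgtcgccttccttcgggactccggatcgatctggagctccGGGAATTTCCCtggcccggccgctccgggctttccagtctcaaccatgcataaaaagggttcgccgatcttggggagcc
IL6: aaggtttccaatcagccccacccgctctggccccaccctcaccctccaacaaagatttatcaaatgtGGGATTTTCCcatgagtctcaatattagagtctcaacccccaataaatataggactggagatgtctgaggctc
CXCL8: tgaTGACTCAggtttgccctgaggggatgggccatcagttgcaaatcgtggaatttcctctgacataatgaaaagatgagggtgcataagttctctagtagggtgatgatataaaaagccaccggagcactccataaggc
IL1A: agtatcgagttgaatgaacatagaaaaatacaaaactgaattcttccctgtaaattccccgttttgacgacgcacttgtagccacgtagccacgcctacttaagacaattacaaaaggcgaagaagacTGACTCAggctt
IL11: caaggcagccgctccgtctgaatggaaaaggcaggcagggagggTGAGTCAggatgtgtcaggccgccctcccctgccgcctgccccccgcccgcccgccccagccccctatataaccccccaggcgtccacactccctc

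In the window from 250 bases before to 50 bases after the start, the NF-kB consensus matched in 4 of the 8 genes (CXCL1, CXCL2, CXCL3 and IL6), against 11.3% of 35116 human promoters of the same length. The 3 CXCL genes carried the same GGGAATTTCC, at positions -79 to -70 in CXCL1 and CXCL3 and -78 to -69 in CXCL2, with an overlapping match on the other strand shifted by 1 base. IL6 carried GGGATTTTCC at -73 to -64. TGANTCA, the AP-1 motif, matched in 3 of 8 (CXCL8, IL1A and IL11) against 7.71% of promoters. TTGCNNAA, letters bound by C/EBP factors, matched in 3 of 8 (CXCL2, IL1B and IL6) against 10.5%, TATAAA in 2 of 8 (CXCL8 and IL1A) against 11.5%, and TGACGTCA in 0 of 8 against 1.85%. Both strands were searched, and a match is a run of letters, not evidence of binding. Nor does the lack of a match show that a site is absent. The NF-kB consensus searched begins with GGG, so near matches were not counted. The printed CXCL8 sequence holds tggaatttcc, which differs from the GGGAATTTCC of the 3 CXCL genes only in its leading base. The genes with the NF-kB consensus included CXCL3, which fell at 10 µM, and IL6, which rose at that dose, and those with the AP-1 motif included CXCL8 and IL1A, which fell, and IL11, which rose.

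Libraries held 42483091 to 51298130 expected counts, and levels are given as CPM (counts scaled to a common library total) scaled by TMM factors of 0.957 to 1.029. 10 µM replicate 1 stood apart from the other 10 µM libraries. The SD over 13678 genes of its log2 difference from the mean of the other 2 libraries of its group was 0.66, against 0.42 and 0.44 for replicates 2 and 3 and 0.20 to 0.31 in the other groups. The share of counts from ribosomal RNA genes in the 10 µM libraries was 8.20%, 14.3% and 19.9% for replicates 1 to 3, against 8.79% to 10.9% with DMSO and 10.6% to 16.6% at 5 µM. Of the melanoma line markers, SOX10 was present at 417 ± 11.0 CPM with DMSO (SD, n = 3) and AXL at 523 ± 7.29, whereas the pigment genes MLANA and PMEL were at 0.173 and 1.48 CPM and TYR was at 0 in all 9 libraries. The 10 leukocyte markers summed to 419 to 445, 554 to 562 and 419 to 586 CPM in the 3 groups, nearly all from CD74, while CD3E, MS4A1 and TYROBP were at 0 in every library. Summed endothelial markers were at 4.42 to 6.21, 5.78 to 10.4 and 11.0 to 17.0 CPM in the 3 groups, and summed keratinocyte markers at 49.4 to 56.7, 62.2 to 66.0 and 67.1 to 97.7. Among these markers NGFR was called lower at both doses and S100A1 at 10 µM, KDR was called higher at both doses and KRT10 and ITGAM at 10 µM, and without 10 µM replicate 1 the KRT10 and ITGAM calls were lost. The KDR call at 5 µM was lost in 6 of 19 refits (limma-voom, any 1 DMSO library or 5 µM replicate 2 or 3 left out, adjusted p up to 0.0674), and the ITGAM call in 9 of 17, among them limma-voom, the replicate number as a block and any 1 DMSO or 5 µM library left out (up to 0.127). Their part in the results was not tested. In such bulk RNA, fewer cells expressing a gene and less RNA of it per cell cannot be told apart.

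Summed over the 10 genes, the level was 816 ± 10.2 CPM with DMSO, 543 ± 8.56 at 5 µM and 548 ± 42.4 at 10 µM. CXCL8 alone gave 378 CPM of the DMSO sum. Without CXCL8 the sums were 438 ± 9.65, 331 ± 3.12 and 370 ± 43.8 CPM, with 10 µM replicate 1 at 420, against 432 to 449 in the DMSO libraries. Most of the 10 genes were lower in treated cells, with CXCL8 and CCL2 falling by most, whereas IL11 rose at both doses and IL6 rose at 10 µM alone. In what follows, a gene is said to have risen or fallen where edgeR's quasi-likelihood test gave a Benjamini-Hochberg adjusted p under 0.05 over 16417 genes, and it is called changed where the fold was also at least 1.5.

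At 5 µM, 1 gene was called higher (IL11) and 2 were called lower (CXCL8 and CCL2), against a background of 2.14% of all genes tested called higher and 2.72% called lower. By the adjusted p alone, 1 rose and 6 fell (CXCL1, CXCL8, IL1A, IL1B, LIF and CCL2), with 4.4% and 5.81% of all genes doing so. The 3 treated libraries lay entirely below the 3 DMSO libraries for 9 genes and above them for 1, as did 25.0% and 23.7% of all genes. At 10 µM, 2 genes were called higher (IL6 and IL11) and 4 lower (CXCL3, CXCL8, IL1B and CCL2), against 8.57% and 10.5% of all genes. By the adjusted p alone 2 rose and 6 fell, the 4 called lower together with IL1A and LIF, where the background was 16.4% and 18.0%. Here the groups did not overlap for 6 genes on the lower side and 2 on the higher side, against 26.0% and 23.4%. The median log2 fold change of the 10 genes was -0.49 at either dose, that of all genes 0.01 at both.

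**Figure D1:**
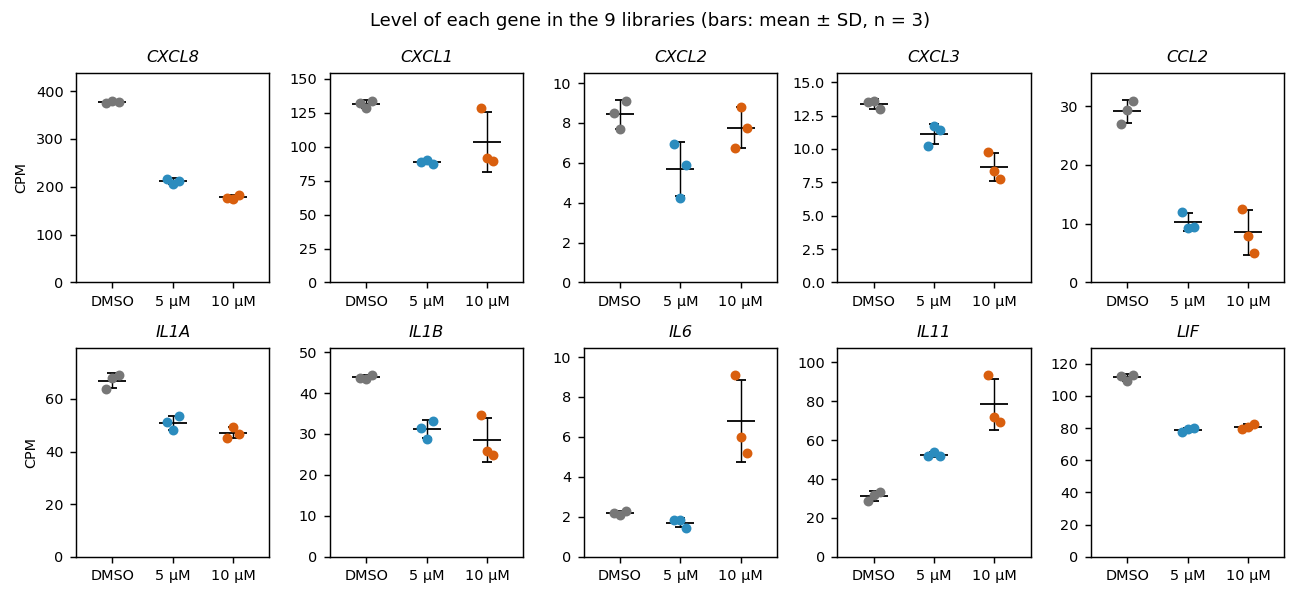
Level of each of the 10 genes in CPM (vertical axis, from 0) in the 3 DMSO, 3 5 µM and 3 10 µM libraries (points), with the mean and SD as bars. For CXCL3, CXCL8, IL1A, IL1B, LIF and CCL2 every treated library sat below every DMSO library at both doses. IL11 rose from 31.3 to 52.5 to 78.4 CPM, and IL6 was high at 10 µM only. At 10 µM replicate 1 was the highest of the 3 libraries for CXCL1, CXCL3, IL1B, IL6, IL11 and CCL2.

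CXCL8, the most abundant of the 10 per transcript length, was at 375.5, 380.3 and 378 CPM in the DMSO libraries, at 217, 205 and 213 CPM at 5 µM and at 177, 175 and 183 CPM at 10 µM. The 3 groups were fully separated, and the libraries within a group differed little. CXCL8 fell by 0.84 on the log2 scale at 5 µM (SE 0.06, adjusted p = 4.20e-05) and by 1.08 at 10 µM (SE 0.06, adjusted p = 1.53e-06), a 2.12-fold lower level at the higher dose. The step between the doses also passed the test, with CXCL8 lower by a log2 change of -0.25 at 10 µM than at 5 µM (SE 0.06, adjusted p = 0.0342). That step kept its direction in 19 refits with other settings, but its adjusted p was 0.05 or more in 11 of them, up to 0.215, 7 of these with 1 library left out (each DMSO and each 5 µM library in turn, or 10 µM replicate 2, 0.0581 to 0.126). The value without 10 µM replicate 1, -1.08 against DMSO, was the same to 2 decimals.

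CXCL1 was at 132, 129 and 134 CPM with DMSO and at 88.9, 90.3 and 87.0 CPM at 5 µM. At 10 µM replicates 2 and 3 were at 91.6 and 89.6 CPM, like the 5 µM libraries, but replicate 1 was at 129 CPM, among the DMSO values. CXCL1 fell at 5 µM by 0.57 on the log2 scale (SE 0.13, adjusted p = 0.0191), just under 1.5-fold, with a fold of 1.48. This did not pass once any 1 DMSO or 5 µM library was left out (adjusted p = 0.0652 to 0.0801). At 10 µM its log2 fold change was -0.35 (95% interval -0.63 to -0.07) with an adjusted p of 0.0550, which did not pass. Without 10 µM replicate 1 the value was -0.54 with an adjusted p of 6.46e-08, within a range of 6.46e-08 to 0.151 over 19 refits, 6 of which were below 0.05. The other 5 of these (no filter, DESeq2, limma-voom, the replicate number as a block, ribosomal RNA genes left out) gave 0.0315 to 0.0492. The SE of CXCL1 in the refit without that library was 0.04.

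CXCL2 gave 8.49, 7.67 and 9.13 CPM with DMSO, 6.92, 4.26 and 5.87 at 5 µM and 6.73, 8.81 and 7.76 at 10 µM. All 5 µM libraries were below all DMSO libraries, and the 10 µM libraries overlapped both groups. Its log2 fold changes of -0.57 at 5 µM (95% interval -0.98 to -0.15, adjusted p = 0.0864) and -0.12 at 10 µM (-0.53 to 0.29, adjusted p = 0.666) did not pass. The 5 µM value passed in 3 of 19 refits, among them the one without 10 µM replicate 1 (adjusted p = 0.0108, range 0.00983 to 0.269).

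CXCL3 was measured at 13.5, 13.6 and 13.0 CPM with DMSO, at 10.3, 11.7 and 11.4 at 5 µM and at 9.77, 8.36 and 7.72 at 10 µM. The 3 groups did not overlap. Its 5 µM value of -0.26 on the log2 scale (95% interval -0.52 to -0.01, adjusted p = 0.194) did not pass (0.0407 without 10 µM replicate 1, range over refits 0.0265 to 0.441), while at 10 µM CXCL3 fell by 0.63 (SE 0.12, adjusted p = 0.00236), a fold of 1.55. Without 10 µM replicate 3 its fold at 10 µM went under 1.5, at a log2 fold change of -0.56 (adjusted p = 0.00705, range over alternatives 7.64e-06 to 0.0134).

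CXCL1, CXCL2 and CXCL3 arose by duplication, and reads from them can be split between the 3 by the counting. Their coding sequences, each of 321 bases, are 93.5% identical between CXCL1 and CXCL2 (21 differences), 94.4% between CXCL2 and CXCL3 (18) and 90.7% between CXCL1 and CXCL3 (30). The stretch of the coding sequence from base 259 to base 318, taken from GENCODE release 29, shows how they differ, with the 14 positions that are not the same in all 3 in capitals.
CXCL1: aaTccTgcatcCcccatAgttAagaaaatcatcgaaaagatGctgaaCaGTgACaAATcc
CXCL2: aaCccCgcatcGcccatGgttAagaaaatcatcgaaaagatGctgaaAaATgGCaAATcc
CXCL3: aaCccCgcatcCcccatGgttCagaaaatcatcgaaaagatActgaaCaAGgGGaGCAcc
Of the 50-base words of the transcript, 4.81% in CXCL1, 12.5% in CXCL2 and 6.01% in CXCL3 also occur in another gene. These 3 were the only ones of the 10 genes with expected counts that were not whole numbers, in 9, 9 and 8 of the 9 libraries, so CXCL2, with the most shared words and the lowest level of the 3, is the least certain. Taken as a single gene, CXCL1, CXCL2 and CXCL3 summed had log2 fold changes of -0.54 at 5 µM (SE 0.11, adjusted p = 0.0147) and -0.36 at 10 µM (SE 0.11, adjusted p = 0.0336), and of 0.18 between the doses (adjusted p = 0.351).

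CCL2, the monocyte chemokine, was at 27.0, 29.4 and 31.0 CPM with DMSO, at 12.0, 9.24 and 9.46 CPM at 5 µM and at 12.5, 7.90 and 5.09 CPM at 10 µM. Every treated library was below every DMSO library, and the 10 µM libraries spread over the 5 µM values. CCL2 showed the greatest decrease of the 10 genes, falling by 1.51 on the log2 scale at 5 µM (SE 0.26, adjusted p = 0.00605) and by 1.78 at 10 µM (SE 0.26, adjusted p = 0.000730), or 2.84-fold and 3.42-fold. The difference between the doses, -0.27 (95% interval -0.85 to 0.32, adjusted p = 0.569), did not pass. Without 10 µM replicate 1 that difference was -0.65 with an adjusted p of 0.00702 (range over alternatives 0.00702 to 0.993), and the 10 µM value against DMSO was -2.16.

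**Figure D2:**
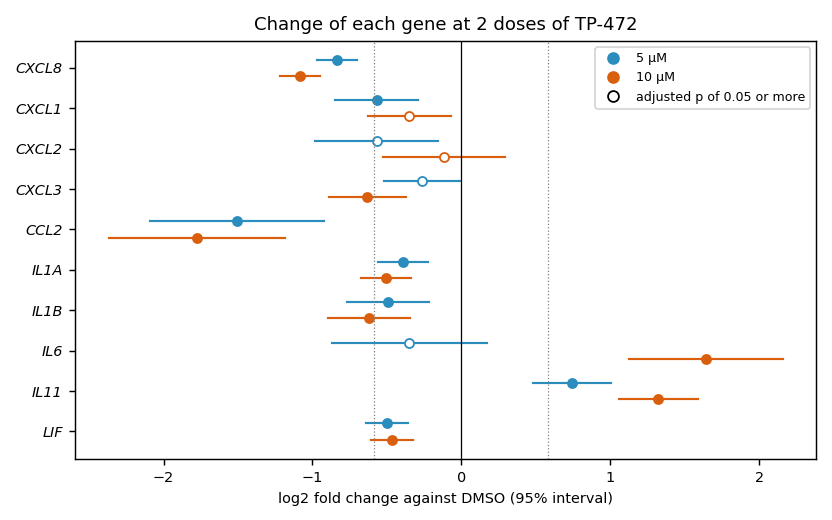
log2 fold change against DMSO (horizontal axis) of each of the 10 genes at 5 µM (blue) and 10 µM (orange), with 95% intervals as lines, open points where the adjusted p was 0.05 or more, and dotted lines at a fold of 1.5. CCL2 lies furthest to the left at both doses (-1.51 and -1.78), IL11 is on the right at both (0.74 and 1.32), and IL6 goes from -0.35 to 1.64.

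IL1A, the IL-1 form that is active as a precursor, was at 63.7, 67.9 and 69.2 CPM with DMSO, at 51.1, 48.3 and 53.6 at 5 µM and at 45.3, 49.3 and 46.7 at 10 µM. Both doses lay below DMSO and overlapped each other. IL1A fell by 0.39 on the log2 scale at 5 µM (SE 0.08, adjusted p = 0.00987) and by 0.51 at 10 µM (SE 0.08, adjusted p = 0.000732), folds of 1.31 and 1.42. The 5 µM decrease did not pass without DMSO replicate 2 or 3 or 5 µM replicate 2 (adjusted p = 0.0571 to 0.0640).

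IL1B, which needs cleavage by caspase-1 to become active, was at 43.6, 43.5 and 44.4 CPM with DMSO, 31.5, 28.8 and 33.3 at 5 µM and 34.7, 25.9 and 24.9 at 10 µM. The treated libraries were again all below DMSO, with 10 µM replicate 1 above the 5 µM libraries. IL1B fell by 0.49 at 5 µM (SE 0.12, adjusted p = 0.0336) and by 0.62 at 10 µM (SE 0.12, adjusted p = 0.00364). At 5 µM it did not pass once any 1 DMSO or 5 µM library was left out (adjusted p = 0.0760 to 0.133). Its 10 µM fold of 1.54 went under 1.5 without 10 µM replicate 2 (log2 fold change -0.56) or 3 (-0.54) and under upper-quartile scaling (-0.58), with adjusted p from 2.31e-07 to 0.0168 over the alternatives. Without replicate 1 it was -0.79.

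IL6, the gp130 cytokine of the acute phase response, had the lowest level of the 10 genes, at 2.17, 2.08 and 2.27 CPM with DMSO and 1.84, 1.82 and 1.46 CPM at 5 µM, and reached 9.11, 6.02 and 5.22 CPM at 10 µM. The 5 µM libraries were all slightly under DMSO, and every 10 µM library was more than 2 CPM above every other library. At 5 µM the log2 fold change of IL6, -0.35 (95% interval -0.87 to 0.17, adjusted p = 0.423), did not pass, and IL6 rose by 1.64 at 10 µM against DMSO (SE 0.23, adjusted p = 0.000524), a 3.12-fold increase. Tested directly, IL6 was higher at 10 µM than at 5 µM by 1.99 (SE 0.24, adjusted p = 0.00102), or 3.97-fold. Replicate 1 was the highest of the 10 µM libraries, and without it the values were 1.37 against DMSO (adjusted p = 7.36e-05) and 1.72 against 5 µM, with adjusted p of at most 0.00445 and 0.0128 over all alternatives. Of the exon bases of IL6, 20.7% overlap AC073072.1 and 2.22% overlap STEAP1B on the opposite strand. Although the libraries were made strand-specific with dUTP, it is not stated whether the counting used the strand, so the reads there are uncertain. The same holds for the 2.32% and 4.41% of the exon bases of LIF that overlap LIF-AS1 and AC004264.1.

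IL11, a gp130 cytokine with its own receptor subunit, was at 28.6, 32.0 and 33.4 CPM with DMSO, at 51.7, 53.9 and 51.8 at 5 µM and at 93.6, 72.1 and 69.4 at 10 µM. The 3 groups did not overlap. IL11 rose by 0.74 on the log2 scale at 5 µM (SE 0.12, adjusted p = 0.00364) and by 1.32 at 10 µM (SE 0.12, adjusted p = 2.94e-05), folds of 1.68 and 2.50. It was also higher at 10 µM than at 5 µM by 0.58 (SE 0.12, adjusted p = 0.0157), a fold of 1.49, and by 0.43 without 10 µM replicate 1. The difference between the doses did not pass without any 1 of the 5 µM libraries (adjusted p = 0.0623 to 0.0722) or with those 2 groups fitted alone (0.0630). IL11 was the only 1 of the 10 genes that rose at both doses and again between them.

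LIF, the gp130 cytokine named for its action on leukaemia cells, was at 112, 109 and 113 CPM with DMSO, 77.3, 79.3 and 80.1 at 5 µM and 79.3, 81.0 and 82.3 at 10 µM. The treated groups lay together well below DMSO. LIF fell by 0.50 at 5 µM (SE 0.06, adjusted p = 0.00106) and by 0.46 at 10 µM (SE 0.06, adjusted p = 0.000408), folds of 1.41 and 1.38, and its difference between the doses was 0.04 (95% interval -0.10 to 0.18).

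Between the doses, 1 of the 10 genes was called higher at 10 µM (IL6) and 0 were called lower, against 1.42% and 2.59% of all genes. By the adjusted p alone IL6 and IL11 rose and CXCL8 fell, where 2.87% and 5.53% of all genes did so, and the groups did not overlap for 2 higher (IL6 and IL11) and 2 lower genes (CXCL3 and CXCL8), against 12.1% and 16.2%. The other 7 genes did not pass, with log2 differences from -0.37 (CXCL3, adjusted p = 0.0819) to 0.45 (CXCL2, adjusted p = 0.167). Their intervals ran over 0 for CXCL1, IL1A, IL1B, LIF and CCL2. Without 10 µM replicate 1, CXCL2 (0.54, adjusted p = 0.0335), CXCL3 (-0.47, adjusted p = 0.00474), IL1B (-0.30, adjusted p = 0.00649) and CCL2 (-0.65, adjusted p = 0.00702) passed as well. Their adjusted p reached up to 0.414, 0.263, 0.849 and 0.993 over the alternatives.

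Relative to the mean of the other 10 µM libraries, replicate 1 was higher by 0.97 on the log2 scale for CCL2, 0.69 for IL6, 0.51 for CXCL1, 0.45 for IL1B, 0.40 for IL11 and 0.28 for CXCL3. For CXCL8, LIF and IL1A the difference was -0.01, -0.04 and -0.08, and for CXCL2 it was -0.29. The genes for which 10 µM replicate 1 was high thus included some lower and some higher than DMSO.

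Per kilobase of the principal transcript, the order of levels with DMSO was CXCL8 (222 CPM per kb), CXCL1 (120.0), CCL2 (39.3), IL1A (31.5), LIF (28.1), IL1B (26.9), IL11 (13.7), CXCL3 (12.4), CXCL2 (6.92) and IL6 (1.42). Of the neighbours in this order, IL11 and CXCL3 were the only pair whose libraries overlapped. At 5 µM the order ran CXCL8 (124), CXCL1 (80.9), IL1A (24.0), IL11 (23.0), LIF (19.9), IL1B (19.1), CCL2 (13.8), CXCL3 (10.4), CXCL2 (4.67) and IL6 (1.12), with overlaps of IL1A with IL11 and of LIF with IL1B. At 10 µM, CXCL8 (105) and CXCL1 (94.2) overlapped through CXCL1 in replicate 1, IL11 (34.4) was now next, ahead of IL1A (22.2) and LIF (20.4), and each of IL1B (17.5), CCL2 (11.5), CXCL3 (8.02), CXCL2 (6.38) and IL6 (4.44) overlapped the gene before it. CXCL8 thus went from 44.2% to 38.7% to 32.3% of the summed level per length of the 10 genes, and IL11 from 2.74% with DMSO to 10.6% at 10 µM. Among 14109 tested genes with a transcript length, CXCL8 was at rank 198 with DMSO and 538 at 10 µM, whereas IL11 moved from rank 4606 to 2024.

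**Figure D3:**
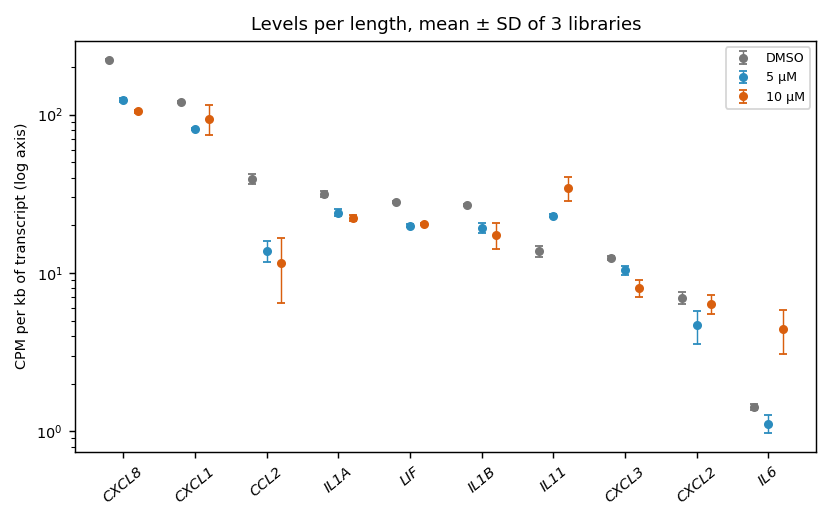
Level of the 10 genes in CPM per kb of the principal transcript (vertical log axis), as the mean and SD of the 3 libraries of each group, ordered by the DMSO level. CXCL8 and CXCL1 stayed the 2 highest in every group, and IL11 went from the 7th place with DMSO (13.7) to the 3rd at 10 µM (34.4).

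The other genes of the same families were mostly near or below detection. Of 14 other CXC and CX3C chemokines only CX3CL1, CXCL10 and CXCL16 were tested, and CXCL5, CXCL6, PPBP, PF4 and PF4V1, which share the chromosome 4 cluster with CXCL8, averaged under 0.1 CPM in each group. CX3CL1 alone was called, lower at 10 µM, with 1.65, 1.05 and 1.49 CPM with DMSO and 0.331, 0.019 and 0 CPM at 10 µM (adjusted p = 0.0195), a call lost without DMSO replicate 1 or 3 (adjusted p up to 0.0686). Of 13 other CC chemokines 5 were tested. CCL3, a macrophage inflammatory protein, rose from 2 reads in all 3 DMSO libraries to 112 at 5 µM and 589 at 10 µM (adjusted p = 0.000468 and 7.94e-06), while the mucosal chemokine CCL28 fell from 12.4 ± 1.39 to 7.77 ± 0.525 and 6.39 ± 1.64 CPM (adjusted p = 0.0383 and 0.00250). The 5 µM call of CCL28 was lost in 7 of 19 refits, 6 of them with any 1 DMSO or 5 µM library left out (adjusted p up to 0.164) and the other with the replicate number as a block. Of 15 other IL-1 and IL-6 family ligands 5 were tested and IL18 was the only 1 called, lower at 10 µM (8.72 ± 0.515 to 4.78 ± 0.838 CPM, adjusted p = 0.00294).

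Of 16 further cytokines and growth factors of inflammation, 13 were tested, with 2 called higher and 2 lower at 5 µM and 3 higher and 2 lower at 10 µM. IL24, an IL-10 family cytokine known from melanoma differentiation, was at 16.0, 16.3 and 13.8 CPM with DMSO, 85.0, 86.9 and 87.7 at 5 µM and 366, 288 and 278 at 10 µM, a log2 increase of 2.49 (SE 0.12) and 4.34 (SE 0.13). CSF2 and CSF3, the GM-CSF and G-CSF genes, were lower, CSF2 at 23.5 ± 2.79, 13.0 ± 0.602 and 15.4 ± 3.68 CPM and CSF3 at 2.76 ± 0.275, 0.957 ± 0.242 and 0.945 ± 0.449 CPM, and each was called at both doses. TNFSF15 (0.895 ± 0.176 CPM with DMSO, 2.56 ± 0.540 and 2.00 ± 0.258 with TP-472) was called higher at both doses, and IL16 at 10 µM. The CSF3 call at 5 µM was lost without any 1 DMSO or 5 µM library (adjusted p up to 0.116), and the CSF2 call at 10 µM without DMSO replicate 2 or 10 µM replicate 2 or 3 (up to 0.0659), under upper-quartile scaling and with a minimum of 1 CPM in 3 libraries. The IL16 call was lost in 4 of 18 refits, without any 1 DMSO library or 10 µM replicate 3 (up to 0.110). The median of the list was a log2 fold change of -0.39 at 5 µM and -0.28 at 10 µM.

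Of 13 receptors and receptor subunits listed for the 10 cytokines, 1 of which (OSMR) serves oncostatin M rather than any of them, 9 were tested and 0 were called at 5 µM, where 0 also passed by the adjusted p alone. At 10 µM CXCR2, the receptor of the CXCL chemokines, was called higher, from 0.040, 0.041 and 0.165 CPM with DMSO to 2.73, 0.711 and 0.876, and OSMR, a partner of gp130, was called lower, from 122 ± 5.07 to 80.7 ± 14.9 CPM, which was lost without DMSO replicate 2 or 10 µM replicate 1, under upper-quartile scaling and with a minimum of 1 CPM in 3 libraries, where the fold was under 1.5 (log2 fold changes up to -0.46). The gp130 gene IL6ST, at 193 ± 7.51 CPM with DMSO, had log2 fold changes of -0.15 and -0.32 that did not pass (adjusted p = 0.749 and 0.274). Among 16 tested signalling genes of the IL-1 and gp130 pathways, SOCS3, a feedback inhibitor of gp130, and IRAK2, a kinase of the IL-1 receptor, were the 2 called, both lower at both doses. SOCS3 was at 22.8 ± 0.688, 11.6 ± 0.171 and 12.7 ± 1.30 CPM and IRAK2 at 17.7 ± 1.00, 11.4 ± 1.77 and 11.3 ± 0.753 CPM. In IL-1 processing, 7 of 9 genes were tested. CASP1, the caspase-1 gene, averaged 0.701, 0.456 and 0.204 CPM in the 3 groups and did not pass (adjusted p = 0.690 at 5 µM and 0.101 at 10 µM). PYCARD (0.007, 0 and 0.026 CPM) and CASP5 (0 in every library) were not tested. NLRP1, an inflammasome sensor, was called higher at both doses (12.8 ± 0.877, 19.7 ± 0.562 and 26.0 ± 4.54 CPM). NLRP3 was called lower at 5 µM and was 3.90 ± 0.339, 2.29 ± 0.384 and 4.40 ± 0.724 CPM. At 5 µM each of the IRAK2, NLRP1 and NLRP3 calls was lost with some of the DMSO or 5 µM libraries left out (3, 3 and 5 of the libraries, adjusted p up to 0.0635, 0.0696 and 0.150), and the NLRP3 call also with the replicate number as a block and with no filter.

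All 17 transcription factors and NF-kB regulators listed for these promoters were tested. The NF-kB subunit genes did not move beyond a fold of 1.5 at either dose. RELA was at 98.9 ± 3.10, 90.8 ± 2.36 and 96.3 ± 7.89 CPM (adjusted p = 0.388 at 5 µM and 0.749 at 10 µM), and RELB, REL and NFKB1 did not pass either. NFKB2 and the inhibitor gene NFKBIA fell at 5 µM, by 0.29 and 0.42 on the log2 scale (adjusted p = 0.0322 and 0.0132), and at 10 µM their log2 fold changes were -0.09 and 0.03, which did not pass. By the adjusted p, 7 of the 17 were higher at 10 µM than at 5 µM and 0 were lower, against 2.87% and 5.53% of all genes. NFKBIA was among the 7, higher by 0.45 (adjusted p = 0.0120). The steps of ATF3 (2.12), EGR1 (2.12), FOS (1.59), JUN (1.06) and CEBPB (0.66) were larger. The AP-1 genes FOS (3.70 ± 0.298, 5.00 ± 0.653 and 15.1 ± 1.28 CPM) and JUN (37.0 ± 1.77, 44.1 ± 1.44 and 92.1 ± 5.79 CPM) were called higher at 10 µM and did not pass at 5 µM (adjusted p = 0.0829 and 0.0684). Other AP-1 genes differed. At 10 µM JUNB rose by 0.57 (adjusted p = 0.00862, a fold of 1.48) and FOSL2 fell by 0.48 (adjusted p = 0.0241). FOSL1, at 343 ± 9.57 CPM with DMSO, had a log2 fold change of 0.16 that did not pass (adjusted p = 0.123). Between the doses FOSL1 was also among the 7, higher at 10 µM than at 5 µM by 0.28 (adjusted p = 0.0492). JUNB, FOSL2 and FOSL1 did not pass at 5 µM. ATF3 and EGR1, immediate response factors, were called higher at both doses, ATF3 at 3.36 ± 0.498, 24.9 ± 2.43 and 108 ± 7.45 CPM and EGR1 at 6.60 ± 1.01, 28.1 ± 2.11 and 122 ± 3.36 CPM. CEBPD was called lower at 10 µM (11.8 ± 0.848 to 4.64 ± 2.40 CPM, adjusted p = 0.00852). CEBPB did not pass against DMSO (adjusted p = 0.142 at 5 µM and 0.112 at 10 µM) and was called higher at 10 µM than at 5 µM (adjusted p = 0.0180).

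**Figure D4:**
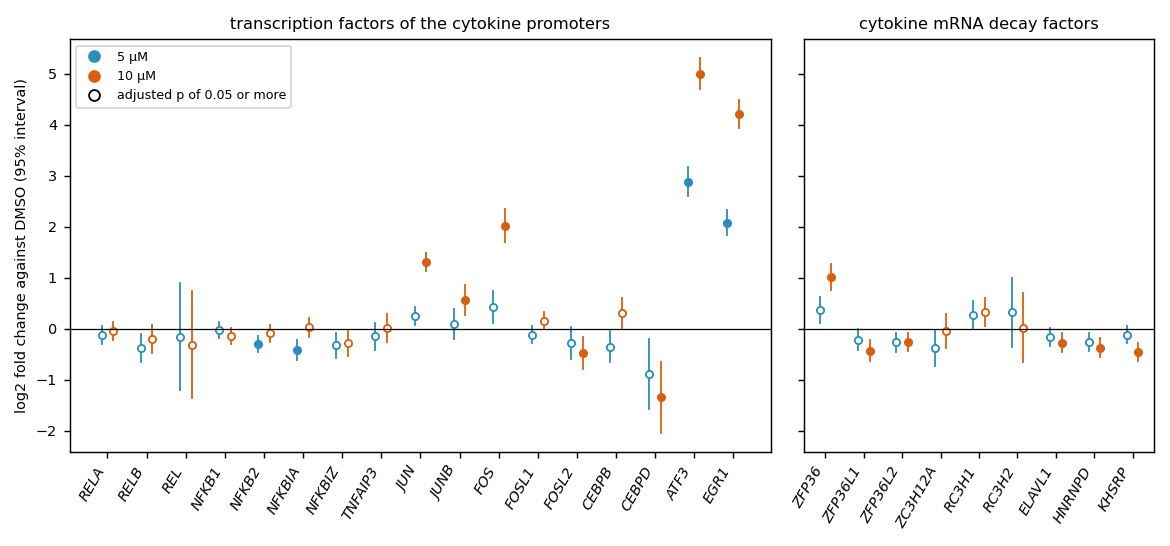
log2 fold change against DMSO (vertical axis) of 17 transcription factors and NF-kB regulators (left) and 9 decay factors of cytokine mRNA (right) at 5 µM (blue) and 10 µM (orange), with 95% intervals as lines and open points where the adjusted p was 0.05 or more. The NF-kB subunits lie near 0, while ATF3 (2.88 and 5.00) and EGR1 (2.09 and 4.21) are far above it at both doses and FOS (2.03) and JUN (1.32) at 10 µM.

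Of the 9 factors that control the decay of cytokine mRNA, 0 passed at 5 µM. At 10 µM ZFP36, the tristetraprolin gene, whose protein speeds the decay of such mRNAs, was called higher (11.9 ± 1.48 to 24.2 ± 1.96 CPM, a log2 fold change of 1.02, adjusted p = 0.000122). Of the others, 5 fell by less than 1.5-fold, where 18.0% of all genes fell by the adjusted p. KHSRP had the largest decrease of these 5 (a log2 fold change of -0.45, adjusted p = 0.00154). What these changes mean for the decay of cytokine mRNA was not tested.

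Within the chromosome 4 cluster, 7 of 16 listed genes were tested. AREG, an EGF receptor ligand at the far end of the region, was called higher at both doses, at 19.8 ± 0.732, 35.5 ± 1.80 and 77.7 ± 14.6 CPM, while CXCL8 was called lower at both and CXCL3 lower at 10 µM. MTHFD2L, which lies between CXCL2 and AREG, was at 4.71 ± 0.426, 4.84 ± 0.831 and 3.79 ± 0.864 CPM and did not pass. On chromosome 2, 6 of 11 genes around IL1A and IL1B were tested, and CKAP2L, a mitotic spindle gene next to IL1A, was called lower at both doses (56.6 ± 1.35, 37.1 ± 3.41 and 24.2 ± 2.53 CPM) along with IL1B at 10 µM. The CKAP2L call at 5 µM was lost without 5 µM replicate 2 (log2 fold change -0.54). The other IL-1 family genes of that region, such as IL36G, IL37 and IL1RN, averaged under 1 CPM in every group.

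Profiles across the 9 libraries were compared by the root mean square difference of log2 CPM, each gene centred on its DMSO mean. The closest genes were PHGDH, ISG20 and FXYD5 for CXCL1 (0.051 to 0.072), LRRC56, BCL6 and POU2F2 for CXCL2 (0.17 to 0.18), PCDHB5, SERPINB6 and GYS1 for CXCL3 (0.053 to 0.065), and FBXO5, CDCA7L and ICAM1 for CXCL8 (0.082 to 0.10). Of the 3 closest to CXCL8, FBXO5 was at 25.5 ± 0.274, 15.4 ± 0.642 and 12.0 ± 0.748 CPM and CDCA7L at 72.2 ± 0.574, 39.6 ± 2.81 and 32.9 ± 2.34 CPM. ICAM1, an adhesion molecule that leukocytes bind and the least close of the 3, was at 158 ± 2.56, 84.1 ± 5.00 and 80.9 ± 0.951 CPM. For IL1A they were TBC1D1, IFI16 and COA1 (0.060 to 0.066), for IL1B FBXO46, TUBB and HMGB1 (0.065 to 0.082), for LIF TFAP2C, GTF2IRD1 and TNIP1 (0.047 to 0.065), and for IL11 DUSP14, HSPB8 and BLOC1S2 (0.098 to 0.099). CCL2 (LOC100507002, NRM and HILPDA, 0.28 to 0.31) and IL6 (CRISPLD2, ADM2 and CYR61, 0.38 to 0.40) had no gene as close. Among the 10 genes themselves the closest pair was IL1A and LIF (0.086), and IL6 and IL11, the 2 that were higher at 10 µM, differed by 0.65.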

How the data were processed

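RNA was measured in 9 A375 libraries. Reads were aligned and quantified by the authors, and the submitters' processing notes name Bowtie2 2.1.0, RSEM 1.2.15 and hg38; the libraries were strand-specific (dUTP), and which annotation was used and whether counting used the strand was not stated in the labels or the methods. The deposited values are expected counts per gene symbol, which need not be whole (10.6% to 13.8% of values per library were not). The text on library preparation names both poly(A) selection and rRNA depletion. Counts were rounded and tested with edgeR 4.0.16 in R 4.3.3 (filterByExpr, TMM, quasi-likelihood F test, all 9 libraries in 1 fit, Benjamini-Hochberg over 16417 of 26475 genes), with SE and 95% intervals from that fit. CPM used TMM-scaled totals. A call required an adjusted p under 0.05 and a fold of at least 1.5. Likeness used log2(CPM + 0.1) over tested genes with a DMSO mean of at least 1 CPM. Alternatives covered scaling, filter, DESeq2 1.42.0, limma 3.58.1 (voom), omission of the rRNA genes, fitting 2 groups only, the replicate number as a block and leaving out each library.

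The 10 genes and the lists were chosen with earlier results of these data known. Besides the 10 genes, named genes were those called in any comparison, at most 4 per list by the smallest p at 10 µM, NF-kB or AP-1 factors behind a count, and the 3 closest profiles per gene. IL6ST, MTHFD2L, KHSRP, CEBPD, CEBPB, JUNB, FOSL1, FOSL2, IL16, CXCL10, CXCL16, CD74, CASP1 and the genes near 0 were named after their values were seen. The labels give the replicates as biological, with no further detail of the cultures. Promoters came from RefSeq (LIF and CCL2 had no entry in the table used), and coding sequences, positions and transcript lengths from GENCODE release 29.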

Additional observations from a re-analysis of the deposited data

Results flagged for a closer look

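For 3 of the 10 genes the 2 doses differed by edgeR's direct test of 10 µM against 5 µM. IL6 was higher at 10 µM by 1.99 on the log2 scale (adjusted p = 0.00102, range over alternatives 1.25e-12 to 0.0128), with all 3 libraries at 10 µM above all 3 at 5 µM, and its value at 5 µM against DMSO, -0.35, had the opposite sign without passing the test. IL11 was higher by 0.58 (adjusted p = 0.0157, range 0.000101 to 0.0722), again in 3 of 3 libraries. CXCL8 was lower by a log2 difference of -0.25 (adjusted p = 0.0342, range 0.000191 to 0.215), also in 3 of 3 libraries.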

How the results depend on the processing

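Each of 30 log2 values (10 genes in 3 comparisons) was recomputed under 20 alternatives. None of these values changed sign, 580 stayed on their side of the call, 16 became a call and 4 lost it. The 16 include every value that had passed by the adjusted p but not by the fold, which became a call without any refit. With the replicate number as a block, 1 of the 10 genes was called higher and 2 lower at 5 µM, 2 and 4 at 10 µM and 1 and 0 between the doses, so no call was added or lost, while 288 and 399, 1269 and 1736, and 176 and 380 of all genes were called. Same-numbered libraries of different groups had correlations of -0.118 to 0.133 in their deviations from the group means, against -0.108 to 0.125 for other pairs. Of the 9 libraries, 2 correlated best with their own number. Whether same-numbered cultures were handled together is not stated, and these correlations cannot decide it. Between the doses, 2 of the 10 genes were called higher with DESeq2-type or upper-quartile scaling, with a minimum of 1 CPM in 3 libraries, with DESeq2, without the ribosomal RNA genes and by the adjusted p alone, the added gene being IL11. Without the fold limit, 6 of the 10 were lower at 5 µM and 1 between the doses, and 722 and 954 (5 µM), 2687 and 2947 (10 µM) and 471 and 908 (between doses) of all genes were higher and lower. Fitting only 2 groups gave 591 and 729 at 5 µM and 101 and 165 between the doses, and DESeq2 gave 418 higher between the doses. The cause was not tested.

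Leaving out 1 library at a time, the genes called among the 10 stayed at 1 higher and 2 lower at 5 µM, and were 2 higher and 2 to 4 lower at 10 µM (2 without 10 µM replicate 3) and 1 to 2 higher and 0 to 1 lower between the doses (2 higher without 10 µM replicate 2 or 3, and CCL2 lower without replicate 1). Over all genes the ranges were 197 to 575 and 283 to 666 at 5 µM (218, 197 and 203 higher without DMSO replicates 1 to 3, 283 and 285 lower without replicates 2 and 3, 575 higher without 10 µM replicate 1), 1051 to 1564 and 1472 to 1879 at 10 µM, and 118 to 320 and 258 to 572 between the doses. The lowest of the last came without a 5 µM library (118 to 121 and 258 to 272), and 155 were higher without DMSO replicate 2. Of 90 counts over the other lists, 56 were the same in 19 refits and none moved by more than 3, and 38 of 53 calls of 28 named genes outside the 10 stayed in all the refits that tested them.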
